A study of Brassica napus with 33 samples.

Results

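The data described here are the 6 small RNA libraries made from ovules of Express617, a winter oilseed rape inbred line (Brassica napus), 15 days (OS15) and 30 days (OS30) after self-pollination. They are 6 of the 33 libraries of the series and were read on all 91060 small RNA clusters that have a position on the Express617 assembly. Each stage had 3 biological replicates, and each replicate pooled pollinated ovules from different, self-pollinated plants grown in the field. The other ovule libraries came at the same 15 and 30 days from the selfed semi-winter, semi-synthetic line G3D001, from selfed F1 plants (Express617 × G3D001), and from Express617 flowers pollinated with G3D001 (F0), with 3 libraries per stage. Leaf libraries of Express617 were made from plants with 6 unfolded leaves. No transgene or treatment was used. The pooled ovule holds the seed coat, the endosperm and the embryo together, so a change of its small RNA in these libraries cannot be told apart from a change in the proportion of these tissues. The tissue labels could not be checked against marker genes, because the clusters carry no gene names.

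Most small RNA of plants has a length of 24 nucleotides and comes from transposons and other repeats. It is made by RNA polymerase IV, RNA-DEPENDENT RNA POLYMERASE 2 and DICER-LIKE 3, and guides DNA methylation back to the loci it came from. In ovules and young seeds of Brassica rapa, a small number of loci, called siren loci, are known to give most of this small RNA, and they are expressed from the maternal genome in the endosperm and the seed coat. MicroRNAs, mostly of 21 nucleotides, come from single hairpin loci and act on messenger RNA. The count table used here does not mark clusters as belonging to either class.

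Between 14456518 and 18575920 reads were counted on clusters in the Express617 libraries of OS15, and between 17185924 and 17594609 in those of OS30. Depth therefore differed little between the stages, and levels are given as counts per 1000000 reads on clusters (CPM), which is the share of the reads of a library. A library of this size measures a cluster of 1 CPM with few reads, and the median cluster had only 5 to 6 counts at OS15 against 48 to 52 at OS30. Replicates differed by more than counting error, since chi-squared divided by its degrees of freedom was 3.31 to 27.5 for pairs of libraries of the same stage. No cluster level below is a molecule count per ovule, and a lower share of a cluster cannot be told apart from a higher output of all others.

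Small RNA was concentrated on few clusters at OS15 and spread over nearly all clusters at OS30. The clusters were defined by the authors on all libraries together, those of OS30 included. A locus with reads only at OS30 is therefore a cluster that is empty at OS15. How far this adds to the clusters raised or gained below was not tested. The 1000 strongest clusters of each library held 87.1%, 88.1% and 88.0% of the reads at OS15 and 58.7%, 56.9% and 55.8% at OS30. The stages did not overlap, and the share fell by 30.6 percentage points (exact permutation test, two-sided, p = 0.1, the smallest p that 3 against 3 libraries allow). The number of clusters that together held 50% of the reads was 160, 148 and 140 at OS15 and 392, 458 and 502 at OS30. At the very top the difference was smaller than the spread among the OS15 libraries, where the 10 strongest clusters held 14.7% ± 2.46 at OS15 and 12.6% ± 0.398 at OS30 (SD, n = 3, exact permutation p = 0.3).

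The number of clusters at 1 CPM or more was 21111, 17774 and 18511 in the OS15 libraries and 82017, 81488 and 81014 in the OS30 libraries. These were 19.5% to 23.2% of all clusters at OS15 and 89.0% to 90.1% at OS30, without overlap of the stages (exact permutation p = 0.1). The median cluster had 0.359 ± 0.0444 CPM at OS15 and 2.87 ± 0.124 CPM at OS30 (SD, n = 3). Clusters without any read numbered 9392, 10835 and 7215 at OS15 and 438, 418 and 479 at OS30. Per length, the median cluster had 0.562, 0.471 and 0.518 CPM per kb at OS15 and 4.17, 4.36 and 4.43 CPM per kb at OS30.

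**Figure D1:**
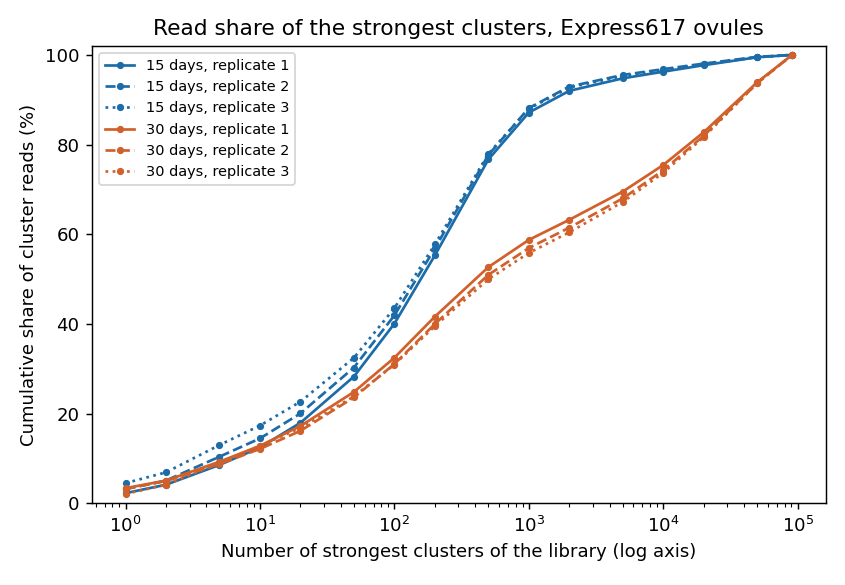
Cumulative share of the cluster reads (%, y axis) held by the strongest clusters of a library (number of clusters on a log x axis), with a line for each of the 3 libraries of 15 and of 30 days. The lines of both stages are close for the first 10 clusters and part after that, reaching 87.1% to 88.1% at 1000 clusters at 15 days and 55.8% to 58.7% at 30 days.

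Single clusters were compared between the stages with edgeR's quasi-likelihood test, which asked which loci gained or lost a share of the small RNA of the ovule. Of 90974 clusters with a count, 76453 (84.0%) were raised and 4866 (5.35%) were lowered at OS30 at a Benjamini-Hochberg adjusted p-value under 0.05. The median cluster rose 9.16-fold in share, or 3.20 on the log2 scale, with quartiles of 1.90 and 4.25. Of all 91060 clusters, 76363 had all OS30 libraries above all OS15 libraries, and 5115 had all below. With 3 against 3 libraries, a cluster without any change is separated in either direction with a probability of 0.1. The 5115 clusters were not tested against that rate and are not used as support for the lowered calls.

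These counts depend on how libraries are scaled. TMM factors, which assume that most clusters do not change, moved the median of all clusters by 2.86 on the log2 scale, to 0.34, and gave 27864 (30.6%) raised and 23193 (25.5%) lowered clusters. The share of raised clusters among all calls fell from 94.0% to 54.6%. All 27864 clusters raised with TMM were raised in share, and all 4866 clusters lowered in share were lowered with TMM, so these sets hold under both scalings. A further 9244 clusters were raised in share and lowered with TMM, and their direction is not called here.

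The clusters lowered under both scalings were few but had carried most of the small RNA. They held 81.2% ± 0.576 of the reads at OS15 and 34.6% ± 0.344 at OS30 (SD, n = 3). The median level of such a cluster was 5.38 CPM at OS15 and 1.70 CPM at OS30. In leaves of Express617, which the comparison of stages did not use, they held 2.70% to 4.84% of the reads of a library. There 68.1% of them were below 0.5 CPM, close to the 65.8% of all clusters.

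The clusters raised under both scalings were many and weak. Together they held 0.832% ± 0.0766 of the reads at OS15 and 22.5% ± 1.25 at OS30. Their median level went from 0.145 to 4.60 CPM, against 0.348 and 2.86 CPM for all clusters. In leaves 75.9% of them were below 0.5 CPM, against 65.8% of all clusters.

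Gain and loss were also counted by level alone. A cluster was taken as gained when it was below 0.5 CPM in every OS15 library and at 2 CPM or more in every OS30 library, and as lost in the reverse case. By this rule 22862 clusters (25.1%) were gained and 173 (0.190%) were lost. The gained clusters held 0.411% of the reads at OS15 and 12.0% at OS30, with a median level of 0.173 and 3.78 CPM. The lost clusters held 0.0922% and 0.00318%. In leaves 86.3% of the gained and 92.5% of the lost clusters were below 0.5 CPM, against 65.8% of all clusters. A count of 0 in all 3 libraries of OS15 was found for 1938 clusters, and at this depth it allows up to 0.0629 CPM over these libraries (3 counts, counting error only).

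Strong clusters of OS15 mostly fell in share and weak ones mostly rose, although the 100 strongest fell less than the next 900. Clusters were ranked by their level in the F0 libraries of OS15, which were not part of the comparison and share the mother Express617. Of the 100 strongest clusters, 89 were lowered and 5 raised in share, with a median log2 fold change of -0.82 (quartiles -1.33 and -0.57). Of the next 900, 79.9% were lowered and 11.8% raised, with a median of -1.45. The following ranks up to 10000 were divided, with 33.1% lowered, 39.0% raised and a median of 0.09 in share that turned to -2.80 with TMM. Among the 81060 weaker clusters 1.33% were lowered and 89.9% raised, with a median of 3.39, which stayed above 0 with TMM (0.54).

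The 1000 strongest clusters by this ranking held 87.0%, 88.0% and 87.9% of the reads of the Express617 libraries at OS15 and 54.9%, 53.3% and 51.9% at OS30. Their median level went from 406 to 169.5 CPM. The weaker clusters outside rank 10000 held 3.86%, 3.27% and 3.46% at OS15 and 32.4%, 34.2% and 35.7% at OS30. Both classes were without overlap of the stages (exact permutation p = 0.1 each).

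The 1000 strongest ovule clusters were divided by their level in leaves, where 700 of them (70%) were below 0.5 CPM, against 65.8% of all clusters. The 700 below 0.5 CPM in leaves held 57.5% ± 2.18 of the reads at OS15 and 26.4% ± 0.871 at OS30 (SD, n = 3), and 638 of the 700 were lowered and 20 raised. In a leaf library their share was 0.00539% to 0.00590%. The other 300 held 30.1% ± 2.54 at OS15 and 26.9% ± 0.987 at OS30, and 170 were lowered and 91 raised. With TMM 700 of the 700 and 295 of the 300 were lowered. The share of the 300 overlapped between the stages (exact permutation p = 0.2), while that of the 700 did not (p = 0.1).

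The 10 strongest clusters of the leaf, with 67.8% to 70.7% of the leaf reads, were all raised in share in the ovule. They held 2.42% to 2.65% of the reads of a library at OS15 and 5.05% to 7.44% at OS30, without overlap of the stages. Their median log2 fold change was 1.34 in share and -1.55 with TMM, so their direction depends on the scaling.

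**Figure D2:**
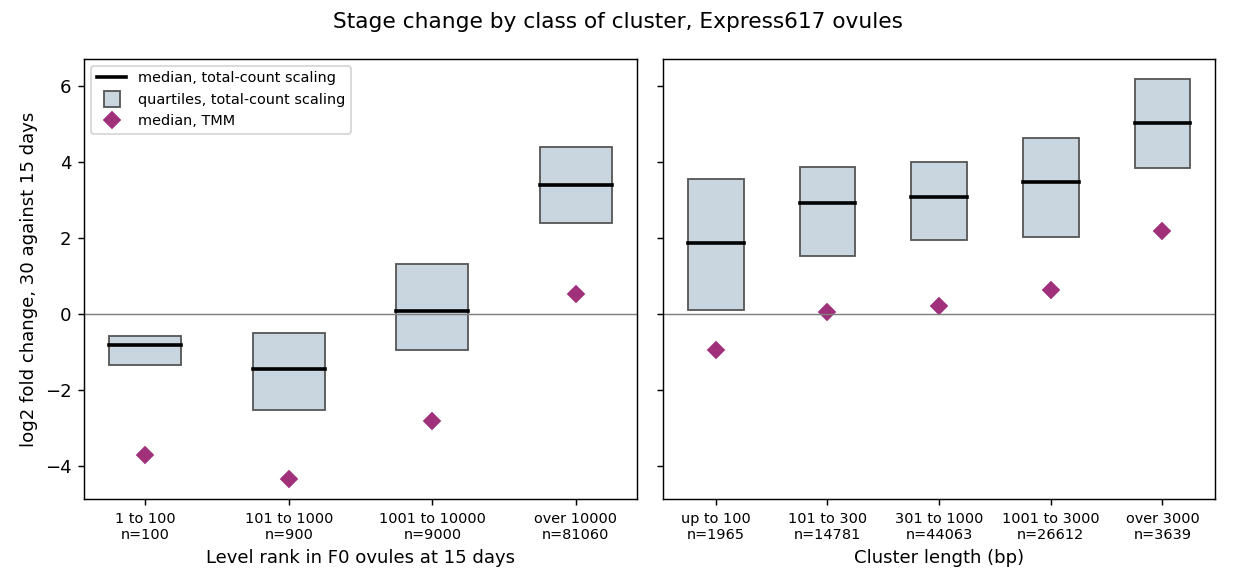
log2 fold change of 30 against 15 days (y axis) for clusters classed by their level rank in the F0 ovules of 15 days (left) and by length in bp (right). Boxes span the quartiles and lines mark the median with total-count scaling, and diamonds mark the median with TMM, which lies lower in every class. The median goes from -0.82 for the 100 strongest clusters to 3.39 for ranks over 10000, and from 1.87 for clusters up to 100 bp to 5.03 for clusters over 3000 bp, and with TMM it is below 0 in the shortest class and at all ranks up to 10000.

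Long clusters rose more than short ones. The length of a cluster was set on all libraries, those of OS30 included, so it is not independent of the change. Clusters ran from 19 to 14210 bp with a median of 689 bp. The median log2 fold change in share was 1.87 in the 1965 clusters of up to 100 bp, 2.92 in the next class up to 300 bp, 3.07 up to 1000 bp, 3.48 up to 3000 bp and 5.03 in the 3639 clusters over 3000 bp. With TMM the order was kept and the values ran from -0.95 to 2.17, so the shortest class changed sign. Against the 84.0% of all clusters, 62.3% of the shortest and 94.6% of the longest clusters were raised in share. Under both scalings the raised shares were 16.2% and 77.1%, against 30.6% of all clusters.

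The longest clusters were the sparsest at OS15. The median cluster over 3000 bp had 0.0578 CPM per kb at OS15 and 2.02 CPM per kb at OS30, and the median cluster of up to 100 bp had 6.85 and 27.0 CPM per kb. In the OS15 libraries the median level of the longest class was 0.272, 0.208 and 0.269 CPM, below that of all clusters, and in the OS30 libraries it was 8.24, 8.84 and 8.89 CPM, above it. Of the longest clusters 55.5% were gained and 0 were lost, and of the shortest 12.3% were gained and 2 were lost. A long cluster collects more reads than a short one of the same density, and the power to call it is higher.

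Read shares by length followed from the strong and the weak clusters together. Clusters over 1000 and up to 3000 bp held 45.4%, 44.5% and 42.9% of the reads at OS15 and 35.4%, 35.7% and 34.9% at OS30, although their median cluster rose. Without the 1000 strongest clusters of the F0 ovules, the share of this class went from 3.39% ± 0.147 to 13.9% ± 0.362, and that of clusters over 3000 bp from 0.372% ± 0.0194 to 4.39% ± 0.211 (SD, n = 3), which is 11.8-fold. The share of clusters of up to 100 bp went from 0.402% to 0.781%, or 1.94-fold. None of these shares overlapped between the stages (exact permutation p = 0.1 each).

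Oilseed rape carries the A subgenome of Brassica rapa and the C subgenome of Brassica oleracea. The stage change was found on every chromosome and differed little between them. Of the clusters on A chromosomes 82.2% were raised in share and 6.70% lowered, and of those on C chromosomes 87.3% and 4.60%. The median log2 fold change was 3.16 on A and 3.26 on C chromosomes, a difference of 0.10 that stayed between 0.09 and 0.11 when single libraries were left out. The lowest chromosome median was 2.98 on A03 and the highest 3.41 on C01. A06 had the most lowered clusters (9.54%) and C04 the fewest (3.50%), against 5.35% over all clusters. With TMM the order changed, with the most lowered clusters on A03 (30.6%, A06 29.4%) and the fewest on C01 (19.9%, C04 22.0%), against 25.5% over all clusters. With TMM 29.6% of the A clusters were raised and 26.9% lowered, and 31.9% and 22.7% of the C clusters. Gained clusters ranged from 20.7% on A03 to 32.2% on C02. The 7413 clusters on sequences not placed on a chromosome had the lowest median, 2.75 in share and -0.11 with TMM.

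The read share of the C subgenome rose among the weak clusters. Outside the 1000 strongest clusters of the F0 ovules, clusters on C chromosomes held 56.4%, 55.8% and 56.2% of the reads on placed clusters at OS15 and 61.3%, 61.1% and 61.3% at OS30, without overlap (exact permutation p = 0.1). Within the 1000 strongest, the C share was 58.1%, 58.9% and 60.8% at OS15 and 62.3%, 60.7% and 60.7% at OS30, and the stages overlapped (exact permutation p = 0.3).

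Along the chromosomes, clusters near the ends rose less than those in the middle. Each chromosome was divided into 10 bins of equal length up to the end of its last cluster. The median log2 fold change was 3.02 in the first and 2.89 in the last bin and highest, at 3.43, in the fourth bin. The share of lowered clusters was 7.88% and 8.12% in the end bins and 3.78% in the fourth. Clusters of a set had neighbours of their own set within 10000 bp in 62.6% of the clusters raised under both scalings, 52.1% of those lowered and 35.3% of those lost. Of all clusters 91.8% had another cluster that close, and the larger a set is, the more neighbours it has.

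**Figure D3:**
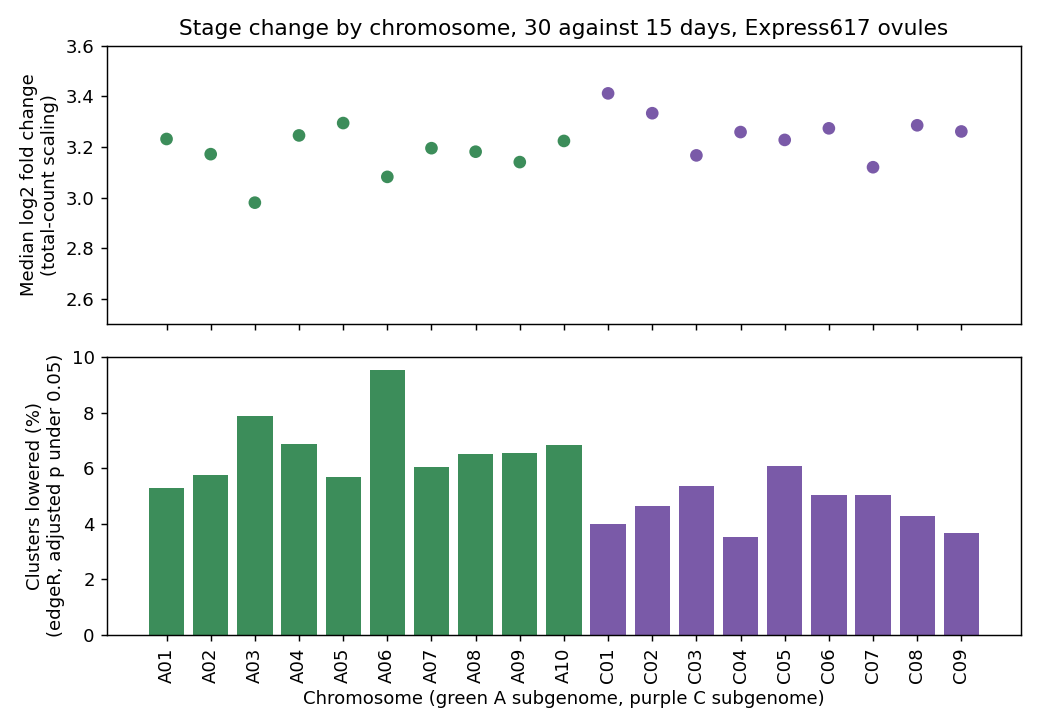
Median log2 fold change of 30 against 15 days with total-count scaling (top, y axis from 2.5 to 3.6) and share of clusters lowered with the same scaling (bottom, %), for each of the chromosomes of the A and the C subgenome. The medians lie between 2.98 (A03) and 3.41 (C01), and the lowered shares between 3.50% (C04) and 9.54% (A06).

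The clusters with the largest rise went from no or hardly any read to 543 counts or more in each library. All 7 of them were without a read in the leaves of Express617. Cluster_35110 (C01:29604277-29604734) had 0 counts in each OS15 library and 3608, 2425 and 1631 counts at OS30, at least 2328-fold higher (floor of 3 counts over the OS15 libraries, adjusted p = 3.6e-21). Cluster_13664 (A05:2325703-2325912) had 0 counts in each OS15 library and 1635, 1416 and 1517 at OS30, at least 1388-fold higher (adjusted p = 5.57e-22). These rises are far larger than the spread among the OS30 libraries, and both clusters also rose with TMM.

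Cluster_942 (A01:9367796-9368134) and Cluster_946 (A01:9389650-9390121) lie close together on A01. The first had 0 counts in each OS15 library and 1448, 1206 and 1081 at OS30, at least 1135-fold higher, and the second 0 and 1085, 935 and 543, at least 779-fold higher. Cluster_33853 (C01:15626837-15627806) had 0 counts at OS15 and 1306, 1010 and 543 at OS30, at least 869-fold higher. Replicate 3 was the lowest OS30 library in 6 of the 7 clusters with the largest rise.

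The strongest of the new clusters were Cluster_88928 on an unplaced sequence (57336-58360) and Cluster_1060 (A01:10387753-10388733). Cluster_88928 had 1 count in each OS15 library and 9396, 7251 and 5137 counts at OS30, a ratio of the pooled counts per read of 6621 (95% exact counting interval 2265 to 32111). Cluster_1060 had 1, 0 and 0 counts at OS15 and 4756, 3907 and 2922 at OS30, a ratio of 10564 (1896 to 417298). The intervals cover counting error only.

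At OS30 the same 7 clusters had means of 0.103 to 5.47 CPM in G3D001, where Cluster_13664 went from 0 to 5.47 CPM and Cluster_88928 from 0.0204 to 3.07 CPM. At OS30 Cluster_35110 had a mean of 146 ± 56.2 CPM in Express617, 184 ± 131 in the F0, 203 ± 60.6 in the F1 and 2.51 ± 1.18 in G3D001 (SD, n = 3). Cluster_88928 had 416 ± 121, 500 ± 288, 456 ± 124 and 3.07 ± 0.850 CPM in the same order. The change differed from that in G3D001 for Cluster_35110 (log2 difference 9.68 ± 1.87 SE, adjusted p = 0.000103), Cluster_1060 (adjusted p = 0.0151) and Cluster_88928 (adjusted p = 0.0359) in one edgeR fit of all 24 ovule libraries. The test could not decide on Cluster_13664, Cluster_942, Cluster_33853 and Cluster_946, which had no read at OS15 in both lines. The SE of their log2 difference was 6664 or more. At OS30 they had means of 87.3, 71.4, 54.6 and 49.0 CPM in Express617 and 5.47, 0.118, 0.512 and 0.103 CPM in G3D001. G3D001 reads were counted on the assembly of Express617 as well, and a locus that differs between the lines cannot be told apart from one that is silent.

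The clusters with the largest fall went from 15.4 CPM or more in each library to 3.90 CPM or less. Cluster_14529 (A05:10636900-10637547) had 641, 583 and 572 counts at OS15 and 2, 1 and 3 at OS30, or 38.3 ± 6.68 and 0.114 ± 0.0564 CPM, which is 335-fold lower (log2 fold change -8.29 ± 0.34 SE, adjusted p = 4.84e-20). Cluster_8521 (A03:13785331-13785970) had 27.5, 26.6 and 15.4 CPM at OS15 and 0, 0.175 and 0.0570 CPM at OS30 (log2 fold change -8.10 ± 0.41 SE, adjusted p = 7.27e-18). The stages were far apart in both.

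The next clusters were Cluster_67360 (C07:10511830-10512456), which went from 35.1 to 0.383 CPM, Cluster_22142 (A07:24517898-24519341), from 62.0 to 0.786 CPM, and Cluster_58697 (C05:29832415-29833930), from 39.3 to 0.536 CPM. Cluster_42333 (C03:6402510-6403198) went from 29.6 to 0.689 CPM. The most abundant of them, Cluster_20633 (A07:9374739-9375734), had 113, 119 and 160 CPM at OS15 and 2.61, 3.90 and 3.71 CPM at OS30, 38.3-fold lower (log2 fold change -5.26 ± 0.21 SE, adjusted p = 4.62e-20). All 7 fell under both scalings and without overlap of the libraries, and each was at or below 2.58 CPM in every Express617 leaf library.

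The fall of 4 of these clusters was larger in Express617 than in G3D001 with total counts, the only scaling given for these differences. Cluster_20633 had 127 ± 49.5 CPM in G3D001 at OS15 and still 44.7 ± 11.1 CPM at OS30, and the change differed by -3.75 ± 0.35 SE on the log2 scale (adjusted p = 1.26e-09). For Cluster_42333 the difference was -3.75 ± 0.47 SE (adjusted p = 2.11e-07). Cluster_22142 and Cluster_58697 differed by -1.53 ± 0.50 SE and -1.59 ± 0.43 SE (adjusted p = 0.0102 and 0.00261). Cluster_14529, Cluster_8521 and Cluster_67360 fell in G3D001 as well, with log2 differences of 0.29 ± 0.78 SE, -0.06 ± 0.46 SE and -0.56 ± 0.46 SE that did not pass the test (adjusted p = 0.771, 0.924 and 0.301).

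**Figure D4:**
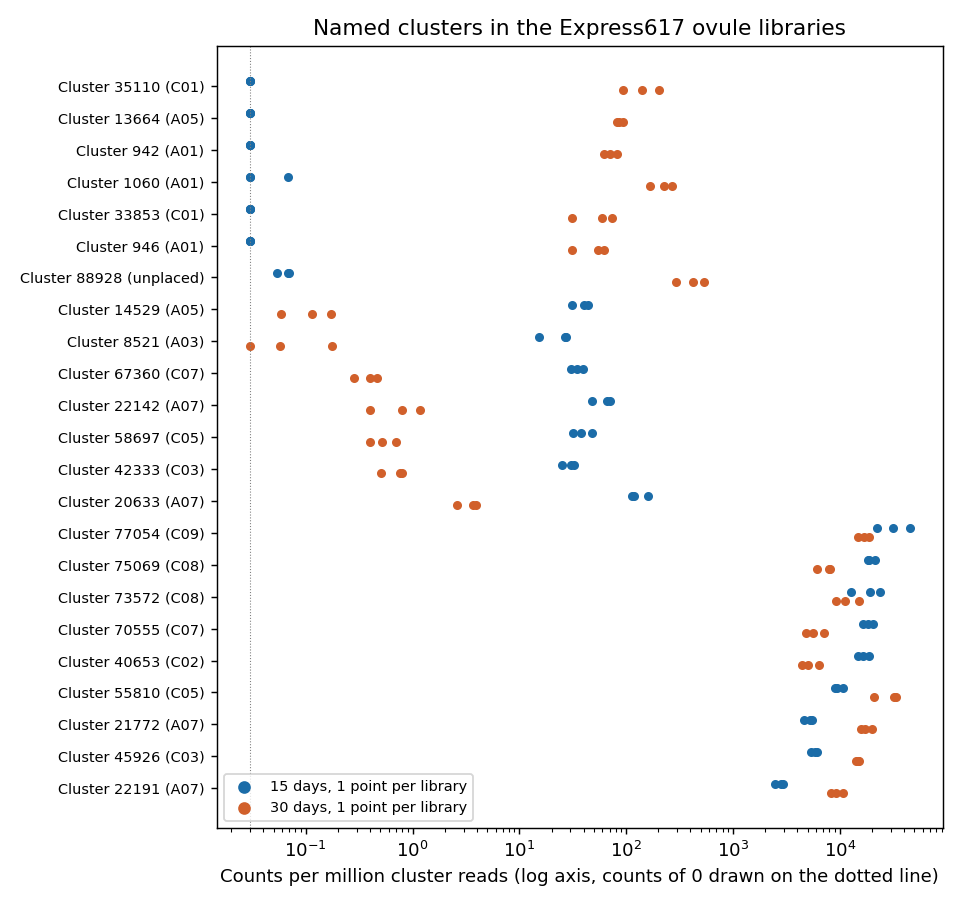
CPM (log x axis) of the named clusters in the Express617 ovule libraries, with 1 point per library of 15 and of 30 days, and counts of 0 drawn on the dotted line. The upper 7 clusters sit at or near 0 at 15 days and between 31.0 and 534 CPM at 30 days, the next 7 go the other way, and the lowest group shows the strongest clusters of either stage, of which Cluster_55810, Cluster_21772, Cluster_45926 and Cluster_22191 are higher at 30 days in share but lower with TMM.

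The strongest clusters of OS15 changed much less. Cluster_77054 (C09:3185112-3185959) had 22520, 31585 and 44966 CPM at OS15 and 16856, 14920 and 18954 CPM at OS30, 1.95-fold lower (log2 fold change -0.97 ± 0.12 SE, adjusted p = 2.71e-09). Cluster_75069 (C08:37425541-37425736) went from 19531 ± 1731 to 7347 ± 1091 CPM (SD, n = 3), and Cluster_73572 (C08:25991328-25991914) from 18589 ± 5625 to 11907 ± 3100 CPM, with libraries of both stages overlapping in the latter. All 3 were also among the lowered clusters with TMM.

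Cluster_70555 (C07:38069987-38070436) had 16464, 18321 and 20642 CPM at OS15 and 5558, 4844 and 7100 CPM at OS30. Cluster_40653 (C02:48354026-48355418) had 14896, 16659 and 18801 CPM and 5046, 4402 and 6427 CPM. Their counts stood in a ratio of 1.10 to 1.11 in all 6 ovule libraries, and those of Cluster_21772 and Cluster_22191 in a ratio of 1.87 to 1.89. In G3D001, Cluster_70555 on C07 had means of 13497.5 and 5986.85 CPM at OS15 and OS30. Cluster_40653 on C02 had means of 12284.1 and 5458.81 CPM there. The study's supplement cites C02 as missing from G3D001, while its main text names large deletions on C01 only. How reads that match several places were assigned is not given in the sources used here, so each pair is uncertain as separate loci. Whether the clusters of a pair share reads was not tested.

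The order of the strongest clusters differed at OS30, where Cluster_55810 and Cluster_21772 stood above Cluster_77054, the strongest at OS15. Cluster_55810, Cluster_77054 and Cluster_73572 were among the strongest clusters of both stages. Cluster_55810 (C05:5570496-5571371) had 8952, 10824 and 9507 CPM at OS15 and 33669, 32269 and 20955 CPM at OS30, 2.97-fold higher in share (log2 fold change 1.57 ± 0.10 SE, adjusted p = 4.26e-16) but lower with TMM (-1.32). It was the strongest cluster at OS30 and held 314003 ± 7935 CPM in leaves. In G3D001 its level was 8853 ± 2368 and 9458 ± 385 CPM at OS15 and OS30. The change in Express617 was higher by 1.47 ± 0.23 SE on the log2 scale with total counts (edgeR adjusted p = 5.32e-06). Over all clusters the median difference of Express617 from G3D001 was 2.04 with total counts and 0.10 with TMM. The sign of a difference of this size may therefore depend on the scaling.

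Cluster_21772 (A07:19839530-19840147) had 5524, 5299 and 4659 CPM at OS15 and 15705, 17167 and 20244 CPM at OS30, 3.43-fold higher in share but lower with TMM (-1.12). Cluster_45926 (C03:36292547-36294037) had 5409, 6141 and 5869 CPM and 15152, 14103 and 14785 CPM, 2.53-fold higher in share but lower with TMM (-1.56). Cluster_22191 (A07:24999462-24999791) went from 2735 ± 241 to 9436 ± 1238 CPM, higher in share but lower with TMM (-1.11). Over all 23 named clusters, the change in Express617 differed from that in G3D001 in 11, against a background of 56.3% of all clusters tested. It differed from that in the F1 or the F0 in 0, against backgrounds of 1.98% and 0.195%. Clusters without a read at OS15 in both groups compared, such as Cluster_946, count here as not differing although the test could not decide on them.

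Whether the change over time was particular to Express617 was asked with the interaction of stage and genotype in one edgeR fit of the 24 ovule libraries. In G3D001 the distribution of reads moved less. Its 1000 strongest clusters held 87.4% ± 1.31 of the reads at OS15 and 84.1% ± 0.419 at OS30, and its clusters at 1 CPM or more numbered 19910 ± 1983 and 33829 ± 1517 (SD, n = 3). The median cluster of G3D001 rose 1.89-fold, against 9.18-fold in Express617 in the same fit. The change differed in 51285 of 91059 clusters (56.3%), with the change in Express617 higher in 48291 (53.0%) and lower in 2994 (3.29%). The study's supplement cites a duplicated A02 and a deleted C02 in G3D001 and leaves both out of its subgenome counts. Its main text names large deletions in G3D001 on C01 only. Here the 4013 clusters on A02 and the 5031 on C02 were kept, and their part in the difference was not tested. With TMM the balance turned, and of 21098 clusters that differed the change in Express617 was higher in 7073 and lower in 14025. The comparisons with G3D001, the F1 and the F0 share the 6 Express617 libraries.

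In the F0 and the F1 most clusters rose as well. The median cluster rose 9.39-fold in the F0 and 10.9-fold in the F1. The change differed from that in the F0 in 178 clusters (0.195%), and from that in the F1 in 1807 clusters (1.98%). At an unadjusted p under 0.05, 7559 and 12067 clusters differed. The number that differed from the F0 was lower whichever library of Express617 was left out, and a fit with fewer libraries also has less power. It was 92, 113 and 85 without replicate 1, 2 or 3 of Express617 at OS15 and 133, 103 and 108 without replicate 1, 2 or 3 at OS30. The 1000 strongest clusters held 58.5% ± 1.10 of the reads of the F0 at OS30 and 60.0% ± 3.33 in the F1.

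By the rule for gain, 22171 clusters were gained in the F0, 24539 in the F1 and 853 in G3D001. Of the 22862 gained in Express617, 63.5% were gained in the F0, 61.3% in the F1 and 2.41% in G3D001. Read the other way, 65.4% of the clusters gained in the F0, 57.1% of those in the F1 and 64.6% of those in G3D001 were gained in Express617. The gained clusters of Express617 had a median level at OS30 of 3.49 CPM for the F0, 3.30 CPM for the F1 and 0.609 CPM for G3D001. Lost clusters numbered 180 in the F0, 174 in the F1 and 100 in G3D001, of which 110, 73 and 41 were lost in Express617.

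**Figure D5:**
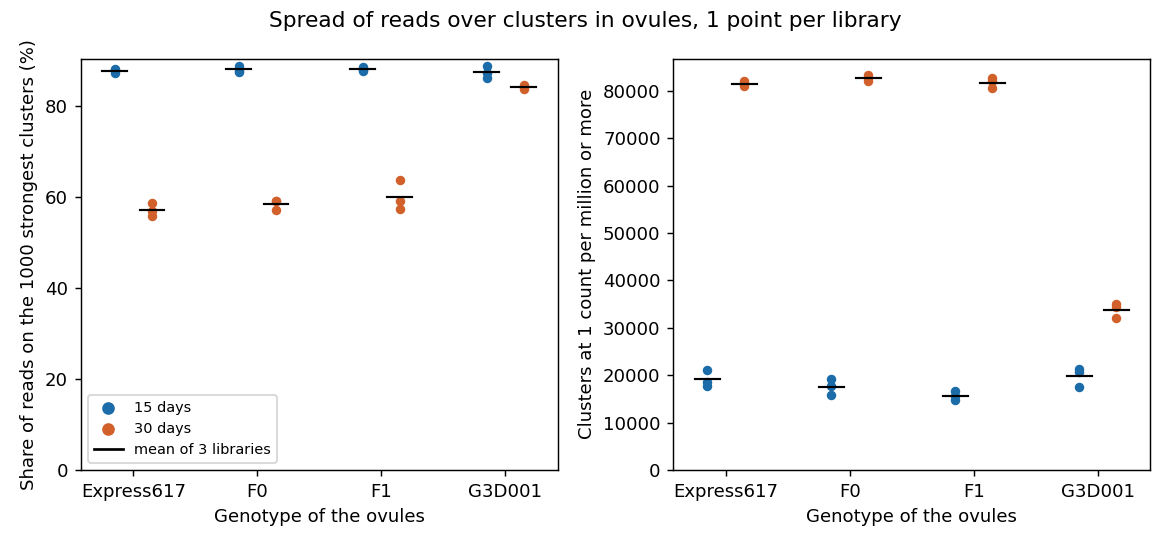
Share of reads on the 1000 strongest clusters of a library (left, %) and number of clusters at 1 CPM or more (right) in ovules of 4 genotypes at 15 and 30 days, with 1 point per library and a line at the mean of 3 libraries. Express617, F0 and F1 go from about the same start to 55.8% to 63.7% and 80455 to 83350 clusters at 30 days, while G3D001 stays at 83.7% to 84.5% and 32132 to 35052 clusters.

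The size of a small RNA is given only for 10201 entries of the table that are named by a sequence of 18 to 36 bases and have no position. Of 6143 such entries with a count in the 6 libraries, 477 (7.76%) were raised and 314 (5.11%) lowered at OS30 in share, and 3503 were lowered with TMM factors of the clusters. These calls depended on single libraries, since the 791 in all became 302, 342, 425 and 257 without replicate 2 or 3 of OS15 or replicate 1 or 2 of OS30. Of 732 tested entries with 24 bases, the size of most small interfering RNA, 175 were raised and 100 lowered in share, and with TMM the balance turned to 78 raised and 367 lowered. They held 1808, 1697 and 1641 CPM at OS15 and 2209, 2177 and 2711 at OS30, without overlap of the stages (exact permutation p = 0.1).

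The following 24-base entries had the largest rise (the first 3) and the largest fall (the last 3) and are shown because the clusters give no sequence. They are written in the 5′ to 3′ direction as deposited, and no genome was used to place them.
rise 1: ccgaugucguccagcgguaggaua
rise 2: auuaaccauuacagggcguagacg
rise 3: aaccgaucguccgaccacgccgga
fall 1: auguaguuugggucucugucaugg
fall 2: aucuccggacccuaaaaacucagg
fall 3: cggugaacucgacgaucuccgacg

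The first rising sequence had 0.545, 0.692 and 1.45 CPM at OS15 and 43.6, 42.7 and 48.5 at OS30 (log2 fold change 5.63 ± 0.61 SE, edgeR adjusted p = 0.0102). The second had 1.499, 0.968 and 0.700, then 38.1, 33.3 and 47.3, and the third 5.65, 2.56 and 3.55, then 107, 116 and 135 CPM. All 3 were without overlap of the stages, rose with TMM as well and were lower at OS30 in G3D001, with 5.73, 7.22 and 8.89 CPM.

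The first falling sequence had 38.5, 35.2 and 36.0 CPM at OS15 and 0.568, 0.873 and 0.228 at OS30 (log2 fold change -6.02 ± 0.70 SE, edgeR adjusted p = 0.0103). In G3D001 it had a mean of 30.5 at OS15 and 86.7 at OS30. The second falling sequence went from 28.9 ± 3.34 to 1.68 ± 0.475 and the third from 57.9 ± 12.3 to 6.401 ± 0.215 CPM (SD, n = 3). None of the 3 had more than 0.175 CPM in a leaf library of Express617, and all 3 fell with TMM as well. Without replicate 2 of OS30 the second and the third no longer passed the test (edgeR adjusted p = 0.0604 and 0.0693), while the other named sequences passed without any single library. The difference of these entries from G3D001 was not tested.

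Among the entries of 21 bases, 1 met the rule for a named sequence. It had 128, 123 and 90.9 CPM in the Express617 libraries of OS15 and 0, 0 and 0.0570 CPM at OS30, and 226 to 251 CPM in leaves (log2 fold change -12.07 ± 1.57 SE, edgeR adjusted p = 0.0114). At OS15 its mean was 104 CPM in G3D001 and 0.264 CPM in the F0, and at OS30 0.0203 and 0.0159 CPM. The F0, which shares the mother Express617, was thus low at both stages, and the cause was not tested. It passed the test without any single library as well (adjusted p up to 0.0467).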

How the data were processed

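Small RNA was sequenced as single-end reads. The authors used seqtk to drop reads under 18 bp, aligned with ShortStack against Express617 and deposited the number of reads on each cluster as raw counts, without normalization. All libraries share one set of clusters.

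Express617 libraries of OS15 and OS30 were grouped by the sample labels. The counts on clusters with a position were the library sizes (14456518 to 18575920), and entries named by a sequence were kept out of them and tested in a separate fit. Stages were compared with glmQLFTest of edgeR 4.0.16 (R 4.3.3) after removal of clusters without a count in the fit. The threshold was an adjusted p-value of 0.05 (Benjamini-Hochberg). The SE of a log2 fold change was taken from the F statistic. Values per library were compared with exact permutation tests, two-sided. TMM and RLE factors, DESeq2 1.42.0, a filter of 10 counts in 3 libraries, a replicate block, other thresholds and leaving out single libraries were the alternatives. The test was also run on simulated data in which a small number of clusters, none of them weak, had a known fold change. In the stage comparison most clusters were called and many were weak, so that run does not cover this setting. The study itself compared genotypes within each stage. Named clusters were the 7 with the largest rise and the 7 with the largest fall under both scalings, without overlap and with at least 20 CPM in the higher stage, and the 6 strongest of each stage. Named sequences were up to 3 with the largest rise and fall at 20 CPM or more, of 21 and of 24 bases. The members and lists were chosen with earlier results of these data known. Sequences of 21 bases are not printed and microRNA families were not analysed here.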

Additional observations from a re-analysis of the deposited data

Results flagged for a closer look

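The change from OS15 to OS30 in Express617 differed from that in G3D001 in 51285 clusters, from that in the F1 in 1807 and from that in the F0 in 178, by the test of the difference itself (edgeR, adjusted p-value under 0.05). The counts for G3D001 and the F1 moved by less than 1.5 times when a library of Express617 was left out, and that for the F0 lay between 85 and 133.

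Entries of 21 bases named by a sequence were by far the highest in 1 library. They held 78062 counts per 1000000 cluster reads in replicate 3 of Express617 at OS30, against 10069 and 11291 in replicates 1 and 2 and 6021 to 7822 at OS15. In that library, 839 entries with at least 10 CPM there and less than 1 in replicate 1 held 72251 CPM. They held 5.17 and 2906 in the other OS30 libraries, 0, 1034 and 3577 in those of OS15, and 0 in the leaves of Express617. The same entries were also high in single replicates of other genotypes. Replicate 2 of the F1 held 9857 CPM at OS15 and 5154 at OS30, against 8.32 or less in the other F1 ovule libraries. In the F0, replicates 2 and 3 held 580 to 2460 CPM over both stages, and replicate 1 held 1.14 or less. In G3D001 ovules they held 0.812 CPM or less. Entries named by a sequence were not part of the library sizes, and the part of these reads in any difference between libraries was not tested. Without replicate 3 of OS30, 76345 clusters were raised and 4517 lowered in share.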

How the results depend on the processing

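The counts of clusters by stage depended on the scaling of libraries. Raised clusters numbered 76453 with total counts and 27864 with TMM, 29770 with RLE factors, 26868 with DESeq2 and 26163 with TMM and a replicate block, and lowered clusters 4866 and 23193, 22442, 22169 and 22045. The median log2 fold change was 3.20 and 0.34, 0.41, 0.41 and 0.35. RLE factors gave 57.0% raised clusters among the calls. With TMM, Cluster_55810, Cluster_21772, Cluster_45926 and Cluster_22191 reversed to -1.32, -1.12, -1.56 and -1.11, 21098 clusters differed from G3D001, and 3665 sequence entries were called instead of 791. Total RNA per ovule was not measured. With total counts, DESeq2, a count filter, one fit of all ovule libraries, a minimum change and the replicate block changed no count by over 1.5 times. In the labels, same-numbered libraries of both stages share a code whose meaning is not given. Their deviations correlated with r of 0.096, 0.061 and 0.144 over 64311 clusters, not above 0.1 in every pair, although each was highest with its own number. The flagged 839 sequence entries, chosen on Express617 libraries of OS30, were high under the same numbers at both stages. In order of number they held 0, 1034 and 3577 CPM in Express617 at OS15 and 5.17, 2906 and 72251 at OS30. In the F1 they held 8.32, 9857 and 1.03 CPM, then 0.389, 5154 and 0.406. These entries thus followed the numbers, but pairing was not tested on them and the main comparison did not use it. The replicate block gave 75876 raised and 4662 lowered clusters.

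Gained clusters numbered 2950 and lost clusters 31 with limits of 0.25 and 4 CPM, and 36028 and 392 with limits of 1 and 2 CPM. Ranking by G3D001 at OS15 gave a median of the 100 strongest clusters of -4.22 relative to all clusters, against -4.01. When single libraries were left out, raised clusters lay between 75495 and 76345 and lowered ones between 4471 and 4861. Those under both scalings lay between 24029 and 26144 and between 4471 and 4861, and the median log2 fold change between 3.15 and 3.26. Gained clusters lay between 24358 and 26507 and lost ones between 188 and 206. The rules for gain and loss ask for every library, so leaving a library out can only add such clusters. The share on the 1000 strongest clusters fell by 29.9 to 31.4 percentage points, and 61695 to 63364 clusters were added at 1 CPM. The difference between the longest and the shortest clusters was 3.08 to 3.18, that of the 100 strongest -4.12 to -3.97, and that between C and A chromosomes 0.09 to 0.11. The change differed from that in G3D001 in 48024 to 50189, in the F1 in 1276 to 1426 and in the F0 in 85 to 133 clusters. The sequence entries depended most on single libraries, with 257 to 685 called, an alternative added after the data were seen.

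At OS15 the median cluster had 5 to 6 counts, and 58 of the 4866 lowered clusters had a mean below 0.5 CPM there. The rule for lost clusters leaves out all below 2 CPM at OS15. With 3 libraries per stage the exact tests cannot go below 0.1. Clusters were defined by the authors on all libraries, each row is a place on the Express617 assembly, and the size and the class of the small RNA of a cluster were not used here.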
